A study of Mus musculus with 9 samples.

Results

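The superfamily of miR-10, miR-99, miR-100 and miR-125 was described in the small RNA of extracellular vesicles (EVs) from mouse airways after ozone (O3) inhalation. Its members were taken by hairpin name alone, as every row of mir-10a, mir-10b, mir-99a, mir-99b, mir-100, mir-125a and both genomic copies of mir-125b, and were compared by the genomic cluster each hairpin belongs to. These 8 hairpins, of 299 in the table, held 49 of its 1308 entries, of which 13 were mature arms and 36 were isomiRs, which are reads of the same arm whose 5′ end is shifted by 1 or more bases. The 3p arms of mir-99a, mir-100 and mir-10b are not analysed here.

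EVs were obtained from bronchoalveolar lavage fluid (BALF), the saline wash of the airways, of female C57BL/6J mice 8 to 10 weeks old, with no transgene, deletion or other treatment named in the labels. The mice inhaled filtered air (FA), 1 ppm O3 or 2 ppm O3 for 3 h, and BALF was collected 21 h later. RNA was sequenced from 3 pools per exposure, and each FA pool held BALF of 4 mice whereas each O3 pool held BALF of 3 mice, so that pool size and exposure to O3 cannot be told apart. Levels are RPMMM, the reads of an entry relative to the reads mapped to miRNAs, brought to one common total, so that a level is always a share of the miRNA reads of its pool.

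MicroRNAs direct the silencing complex to mRNAs that pair with their seed, bases 2 to 8 from the 5′ end, so that members with the same seed have many predicted targets in common. The superfamily is among the oldest of the animal miRNA families. In mammals its miR-10 genes sit within the Hox clusters, which encode transcription factors of body patterning, and its miR-99, miR-100 and miR-125 genes lie side by side with a let-7 gene in clusters that arose by duplication. miR-99 and miR-100 are known to repress Mtor, miR-125 is known for its role in haematopoietic and immune cells, and members of the superfamily are plentiful in many epithelia.

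The mature 5p sequences are shown because the seed groups them. They were taken from RefSeq (GRCm38.p6), which held all 13 mature arms of the table, and the seed is in capitals.
miR-10a-5p: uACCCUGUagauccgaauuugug
miR-10b-5p: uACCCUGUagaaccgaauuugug
miR-99a-5p: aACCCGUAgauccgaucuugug
miR-100-5p: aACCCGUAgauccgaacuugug
miR-99b-5p: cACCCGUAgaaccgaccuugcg
miR-125a-5p: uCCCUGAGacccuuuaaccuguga
miR-125b-5p: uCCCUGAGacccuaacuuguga

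They formed 3 seed groups. miR-10a-5p and miR-10b-5p shared the seed ACCCUGU and differed by the single substitution U12A, counted from 1 at the 5′ end with the base of miR-10a-5p first. In the group with the seed ACCCGUA, miR-100-5p differed from miR-99a-5p by A16U, whereas miR-99a-5p differed from miR-99b-5p by A1C, U11A, U16C and U21C. The seed CCCUGAG was common to miR-125a-5p and miR-125b-5p, which were identical over their first 13 bases. miR-10a-5p and miR-100-5p also shared a run of 11 bases that began within the seed of each. A single base separates miR-99a-5p from miR-100-5p and miR-10a-5p from miR-10b-5p, so a read with a mismatch at that base could be counted for the other miRNA. Both copies of mir-125b give the same 5p sequence, and their 5p levels were nearly identical in every pool, so that the source of the reads cannot be told apart.

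In mm9, which is the build used by the study, an exact match of the mature sequences placed the 5p arm of mir-10a on the plus strand at chr11:96178500-96178522, in an exon of an annotated Hoxb4 transcript, and that of mir-10b at chr2:74564131-74564153, in an intron of Hoxd3 and Hoxd4. The mir-99b cluster on chromosome 17 was compact, with mir-99b at chr17:17967158-17967179, let-7e at chr17:17967330-17967351 and mir-125a at chr17:17967781-17967804, the last in an exon of Ncrna00085. All 3 hairpins lay within 683 bp. The mir-99a cluster spanned 47400 bp of chromosome 16, from mir-99a at chr16:77599185-77599206 through let-7c-1 to mir-125b-2 at chr16:77646524-77646545. Both mir-99a and let-7c-1 lay opposite an intron of Gm11146. The mir-100 cluster spanned 50565 bp of chromosome 9, from mir-100 at chr9:41339520-41339541 through let-7a-2 to mir-125b-1 at chr9:41390023-41390044, all in introns of the lincRNA D230004N17Rik.

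The pools held an estimated 280830 to 862940 miRNA reads, and the 2 ppm pools were the shallowest, at 280830 to 300160. The lowest value above 0 was 34.34 to 37.3 RPMMM in the 2 ppm pools and 11.81 to 18.92 RPMMM in the others, so a level of 0 after 2 ppm O3 can stand for a higher level than a 0 elsewhere. After 2 ppm O3, entries of the 5 hairpins mir-5115, mir-5109, mir-5105, mir-5102 and mir-2137 took 45.2% of the miRNA reads, against 0.588% in FA and 8.07% after 1 ppm O3, which lowers every other share. Among the 461 entries that averaged more than 50 RPMMM, the median log2 fold change was -0.83 after 2 ppm O3 relative to FA and -0.08 after 1 ppm O3. Changes of single members are therefore given beside this median and after the pools were rescaled by the median ratio of their entries, under which it was -0.08 after 2 ppm O3. The shares of the superfamily, the sums by cluster and the sums of markers are given as deposited only. FA pool 1 stood apart from the other FA pools, with 4714 RPMMM of miR-2137 against 641 and 580 RPMMM, and with levels of miR-99a-5p, miR-100-5p, miR-10a-5p, miR-125a-5p and miR-125b-5p below those of both other FA pools. The 5 epithelial markers (miR-200a-3p, miR-200b-3p, miR-200c-3p, miR-141-3p and miR-429-3p) summed to between 57658 and 61272 RPMMM in FA, between 46818 and 51843 RPMMM after 1 ppm O3 and between 23931 and 26964 RPMMM after 2 ppm O3. Their log2 fold changes after 2 ppm O3 lay between -1.39 and -0.74 as deposited and between -0.69 and -0.05 with the median-ratio scaling. The 4 leukocyte markers summed to between 783 and 1115 RPMMM in FA, between 895 and 1483 after 1 ppm O3 and between 743 and 792 after 2 ppm O3, with miR-150-5p at 0 in 8 of the 9 pools. Most of the sum was miR-223-3p, with means of 721, 1053 and 671 RPMMM in that order. The mean of miR-142-3p was 152 RPMMM in FA and 13.8 RPMMM after 2 ppm O3, and it was called lower (adjusted p = 0.0104 from limma). Erythroid markers, of which 3 of 5 names were listed, summed to between 736 and 1722, between 150 and 311 and between 158 and 948 RPMMM. Smooth muscle and fibroblast markers, with 4 of 5 names listed, summed to between 4497 and 11325, between 5688 and 8300 and between 5199 and 5318 RPMMM, and the endothelial miR-126-3p lay between 51.9 and 190, between 161 and 630 and between 465 and 577 RPMMM. The part of these markers in the results was not tested, and fewer vesicles of a source cannot be told apart from less of a miRNA in each vesicle.

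The superfamily was a smaller part of EV miRNA after O3. All of its entries made up 4.34% ± 0.745 (SD, n = 3 pools) of miRNA reads in FA, 3.21% ± 0.214 after 1 ppm O3 and 1.39% ± 0.128 after 2 ppm O3, where the share was 0.321 times that in FA. The share was 3.51% in FA pool 1 and 4.93% and 4.60% in the other FA pools, and it lay between 1.25% and 1.48% in the 2 ppm pools. miR-125 held the greater part of it in FA, with 2.18% of miRNA reads, followed by miR-99 and miR-100 together with 1.64% and miR-10 with 0.528%. After 2 ppm O3 these shares were 0.644%, 0.609% and 0.143%. All of these shares are as deposited. The 45.2% of miRNA reads taken by the 5 hairpins led by mir-2137 lowers each of them after 2 ppm O3. How much of the fall in these shares remains after rescaling was not tested.

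**Figure D1:**
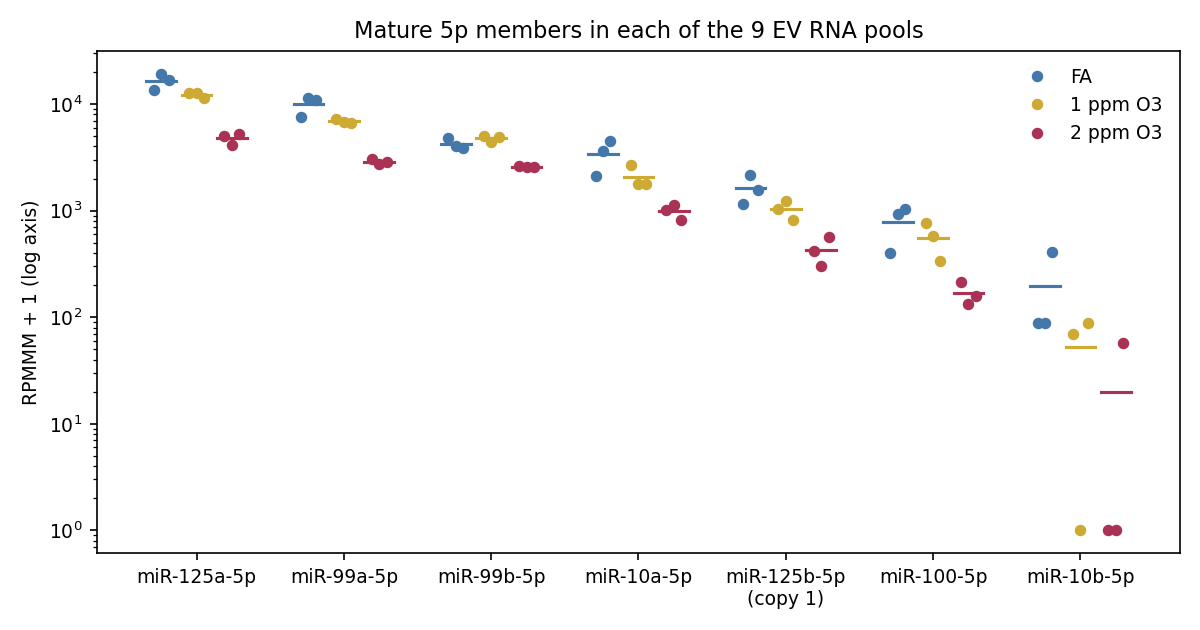
Level of each mature 5p member in each pool, as RPMMM + 1 on a log axis, with 1 point per pool and a line at the group mean. Levels run from 19319 RPMMM for miR-125a-5p to 0 for miR-10b-5p, and the 2 ppm points lie below the FA points for each miRNA.

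miR-125a-5p, of the mir-99b cluster, was the most abundant member. Its levels were 13615, 19319 and 16668 RPMMM in the FA pools, 12704, 12780 and 11309 RPMMM after 1 ppm O3 and 5035, 4101 and 5268 RPMMM after 2 ppm O3. No pool of one exposure overlapped another, and its rank among all entries was 19 in FA, 20 after 1 ppm O3 and 47 after 2 ppm O3. miR-99a-5p, of the mir-99a cluster, was next, with 7561, 11418 and 10842 RPMMM in FA, 7219, 6805 and 6655 RPMMM after 1 ppm O3 and 3032, 2733 and 2843 RPMMM after 2 ppm O3. Again the 3 exposures did not overlap. How many of all entries separate by exposure in this way was not counted. miR-99b-5p, which lies in the same cluster as miR-125a-5p and has the same seed as miR-99a-5p, was at 4791, 4083 and 3882 RPMMM in FA, 4969, 4433 and 4924 RPMMM after 1 ppm O3 and 2602, 2584 and 2582 RPMMM after 2 ppm O3. Its levels in FA and after 1 ppm O3 overlapped, and those after 2 ppm O3 lay below both and were nearly equal to each other.

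miR-10a-5p, the Hox-embedded member, was at 2098, 3652 and 4497 RPMMM in FA, 2666, 1765 and 1785 RPMMM after 1 ppm O3 and 1024, 1119 and 820 RPMMM after 2 ppm O3. Its FA and 1 ppm pools overlapped through FA pool 1, and every 2 ppm pool lay below them. miR-125b-5p, read from the copy of mir-125b-1, was at 1149, 2172 and 1552 RPMMM in FA, 1030, 1229 and 820 RPMMM after 1 ppm O3 and 418, 300 and 563 RPMMM after 2 ppm O3. miR-100-5p was at 400, 926 and 1038 RPMMM in FA, 756, 581 and 332 RPMMM after 1 ppm O3 and 211, 131 and 158 RPMMM after 2 ppm O3. For both, FA and 1 ppm levels overlapped and 2 ppm levels were the lowest. miR-10b-5p was the scarcest 5p member, with 87.5, 87.9 and 404 RPMMM in FA, 68.2, 0 and 87.1 RPMMM after 1 ppm O3 and 0, 0 and 56.8 RPMMM after 2 ppm O3. A single FA pool held most of it.

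In the test across all entries, 22 members had a mean above 50 RPMMM, namely all 13 mature arms and 9 isomiRs. An entry was called at an adjusted p below 0.05 from limma and a fold change of at least 2, on the log2(RPMMM + 1) scale. The added 1 RPMMM understates the change of low entries, and for an entry at 0 in some pools the fitted value depends on it, so that with 10 RPMMM added the value after 2 ppm O3 became -3.07 from -5.25 for miR-10b-5p and -2.69 from -4.87 for miR-125b-1-5p with a shift of 1 base. After 2 ppm O3, 13 of the 22 members were called, all lower than FA, where 43.6% of all entries tested were called in either direction and 29.3% were called lower. The 13 count both copies of miR-125b-5p and both copies of its isomiR with a shift of 1. These isomiRs averaged 14.4 RPMMM after 2 ppm O3 and passed the filter only through the other pools, so their calls carry little weight. Uncalled members under 50 RPMMM after 2 ppm O3 were miR-10b-5p (18.9), miR-10a-3p (35.1) and miR-99b-5p with a shift of 1 (34.9) or 2 (48.6). Their fitted values enter the median of the members. The median log2 fold change of the 22 members was -1.94, against -0.83 for all entries. With each mature miRNA tested once, 5 of 12 members were called, all lower, where 75 of 216 entries were called lower. Between 2 ppm and 1 ppm O3, 11 members were called, all lower, where 33.6% of all entries were called and 22.3% were called lower, and the median was -1.31 against -0.69. After 1 ppm O3, 1 member was called lower than FA, where 13.2% of all entries were called and 2.82% were called lower, and the median of members was -0.49 against -0.08. With the median-ratio scaling, 11 members were called lower after 2 ppm O3 relative to FA, among 26.4% of all entries called (33 of 120 calls lower, against 135 of 201 as deposited). Their median of -1.24 stood against -0.08 for all entries. Between 2 ppm and 1 ppm O3, 0 members were called by limma, where 17.8% of all entries were called but only 6 of those 81 calls were lower. The median was -0.70 against 0.02. With that scaling 8 members had an unadjusted p under 0.05 in the last comparison. As deposited, leaving out FA pool 1 gave 13 calls after 2 ppm O3 (39.2% of all entries), 10 between the concentrations (31.6%) and 1 after 1 ppm O3 (12.4%). Between the concentrations, 6 were left without 1 ppm pool 1 (24.1% of all entries) and 7 without 2 ppm pool 3 (29.6%).

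**Figure D2:**
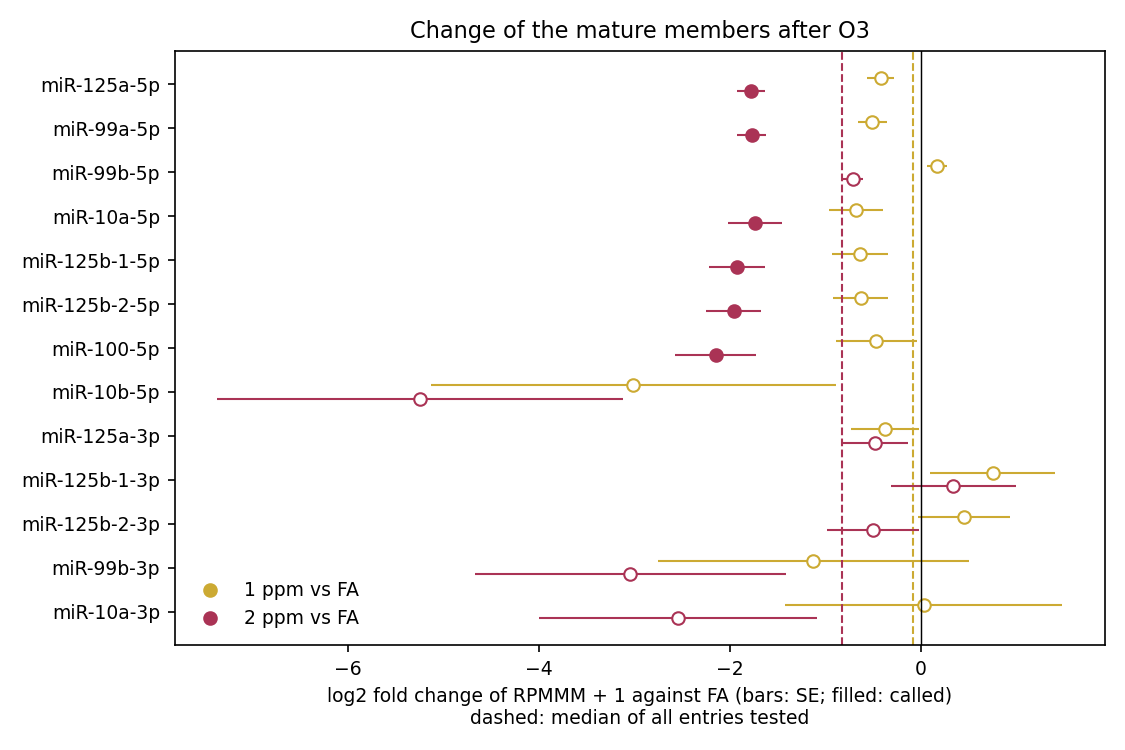
Log2 fold change of RPMMM + 1 against FA for the 13 mature members, after 1 ppm O3 and 2 ppm O3. Bars are the SE, filled points were called, and dashed lines mark the median of all 461 entries tested, at -0.08 and -0.83. The 5p arms other than miR-99b-5p lie left of the 2 ppm line.

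Among the mature arms, 6 of 8 entries of 5p arms were called lower after 2 ppm O3, where 29.3% of all entries tested were. The 8 entries count miR-125b-5p once for each copy. Of the 5 entries of 3p arms, 0 were called by limma (0 at an unadjusted p under 0.05), and the medians were -1.85 and -0.50. The 3p arms were scarce, with SEs from 0.35 to 1.63, and miR-99b-3p and miR-10a-3p lay at -3.04 and -2.55, so these counts do not show a difference between arms. miR-125a-5p fell by 1.78 ± 0.14 on the log2 scale (SE, adjusted p = 5.9e-06 from limma) and miR-99a-5p fell by 1.77 ± 0.15 (adjusted p = 7.4e-06 from limma), both close to the fall of miR-10a-5p, 1.73 ± 0.28 (adjusted p = 0.000661 from limma). miR-100-5p fell by 2.15 ± 0.42 (adjusted p = 0.002 from limma), and the copies of miR-125b-5p had log2 fold changes of -1.92 ± 0.30 and -1.96 ± 0.28 (adjusted p = 0.000475 and 0.000329 from limma). These 6 calls held when any 1 pool was left out. Under the median-ratio scaling the same entries had log2 fold changes between -1.45 and -1.03, all called. When the 5 hairpins led by mir-2137 were kept out of the total, miR-99a-5p, miR-125a-5p and miR-10a-5p lay at -0.91, -0.92 and -0.87, short of a 2-fold change. Between 2 ppm and 1 ppm O3 the deposited scaling gave -1.36 ± 0.14 for miR-125a-5p, -1.26 ± 0.15 for miR-99a-5p, -1.68 ± 0.42 for miR-100-5p and -1.05 ± 0.28 for miR-10a-5p (adjusted p between 9.3e-05 and 0.0151 from limma), and the median-ratio scaling gave -0.74, -0.65, -1.07 and -0.44, none called.

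miR-99b-5p was the exception among the abundant 5p arms. Its log2 fold change after 2 ppm O3 was -0.71 ± 0.11 (adjusted p = 0.000461 from limma), under a 2-fold change and close to the median of all entries, and it was -0.01 under the median-ratio scaling (adjusted p = 0.962 from limma). After 1 ppm O3 it was 0.17 ± 0.11 (adjusted p = 0.399 from limma). miR-10b-5p had the most negative fitted value, -5.25 ± 2.13, but its pools were too uneven for a call (adjusted p = 0.0616 from limma), and this value depends on the pseudocount since 2 of its 2 ppm pools were at 0. It was -3.07 and called with a pseudocount of 10 RPMMM. The mean level of miR-10b-5p was 193 RPMMM in FA, with 404 RPMMM in FA pool 3, and 18.9 RPMMM after 2 ppm O3. Without FA pool 3 this miRNA fell below the filter on the mean level and was not tested. Its call with the larger pseudocount therefore carries little weight.

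At 1 ppm O3, 1 member was called. The log2 value for miR-99a-5p was -0.51 ± 0.15 (adjusted p = 0.0461 from limma), less than 2-fold, and the adjusted p ranged from 0.00119 without FA pool 1 to 0.183 without FA pool 2. The other 5p members lay between -0.68 and -0.42, apart from miR-99b-5p and miR-10b-5p, with adjusted p-values from limma of 0.0881 or more. miR-10b-5p, at -3.01 ± 2.13 (adjusted p = 0.467 from limma), and miR-99b-3p, at -1.12 ± 1.63 (adjusted p = 0.776 from limma), had wide errors and were not called. The 1 called member was the isomiR of miR-10a-5p that starts 1 base later, at 1028, 1578 and 1738 RPMMM in FA, 737, 535 and 602 RPMMM after 1 ppm O3 and 385, 263 and 455 RPMMM after 2 ppm O3. Its exposures did not overlap, and it lay at -1.19 ± 0.27 after 1 ppm O3 (adjusted p = 0.0157 from limma) and -1.98 ± 0.27 after 2 ppm O3 (adjusted p = 0.000234 from limma). The 1 ppm call was kept in 5 of 9 fits with a pool left out, among them the fit without FA pool 1, and was lost without FA pool 2, FA pool 3, 1 ppm pool 2 or 1 ppm pool 3.

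Ratios between members within a pool do not depend on the total to which the pool was scaled, and 6 were compared by an exact permutation test, two-sided, of the number of pairs of pools that rose with concentration. The ratio of miR-99a-5p to miR-99b-5p, which share a seed, was 1.58, 2.80 and 2.79 in FA, 1.45, 1.53 and 1.35 after 1 ppm O3 and 1.17, 1.06 and 1.10 after 2 ppm O3. The exposures did not overlap, 0 of 27 pairs rose, and the exact permutation p was 0.00119, the smallest these pools can give (0.00714 adjusted over the 6 ratios). Since miR-99b-5p changed about as much as the median entry, other entries that fell more may give a like ratio to it. How many do was not counted. After 2 ppm O3 the levels of both miRNAs were close to equal. Within the mir-99b cluster, the ratio of miR-99b-5p to miR-125a-5p was 0.352, 0.211 and 0.233 in FA, 0.391, 0.347 and 0.435 after 1 ppm O3 and 0.517, 0.630 and 0.490 after 2 ppm O3. It rose in 26 of 27 pairs (exact permutation p = 0.00357, adjusted 0.0107), and FA pool 1 overlapped the 1 ppm pools. Both results kept their direction and passed the same threshold in each of the 9 leave-one-out settings.

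**Figure D3:**
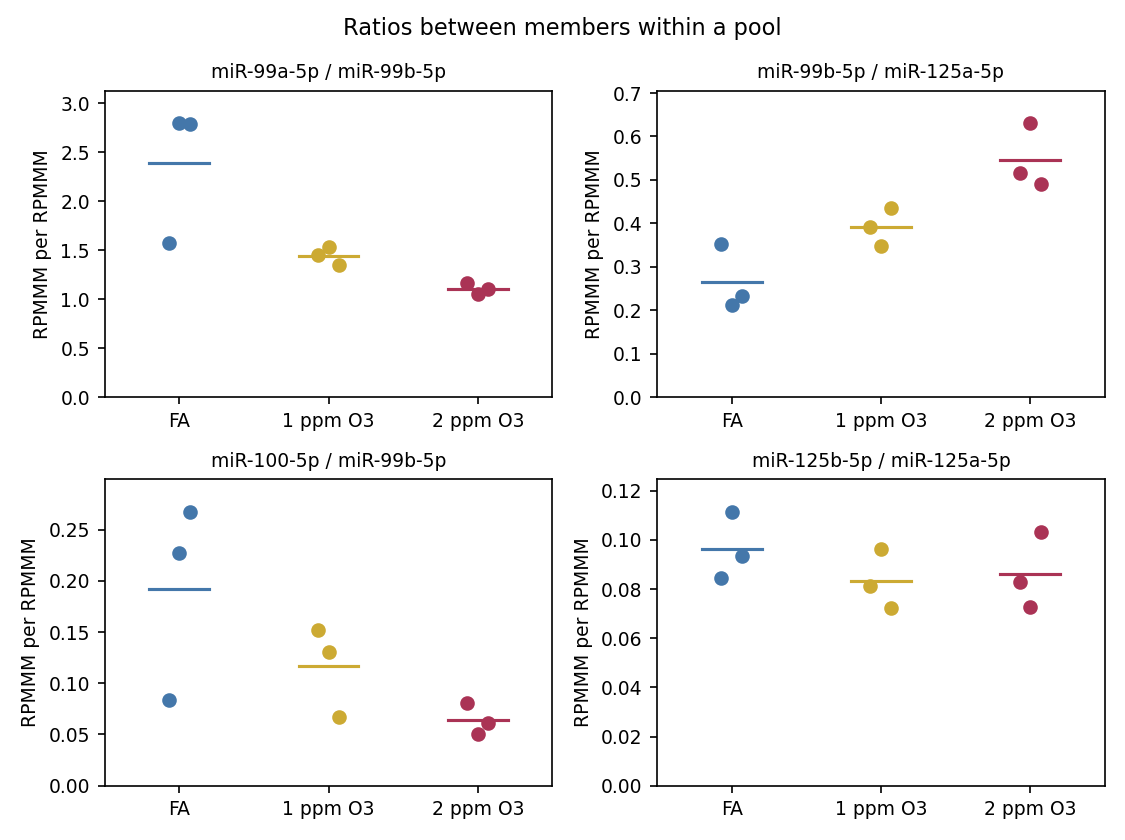
Ratio of the RPMMM levels of pairs of 5p members within each pool, by exposure, with 1 point per pool and a line at the group mean. The ratio of miR-99a-5p to miR-99b-5p falls from 2.80 to 1.06 across the pools, that of miR-99b-5p to miR-125a-5p rises from 0.211 to 0.630, and that of miR-125b-5p to miR-125a-5p overlaps between exposures.

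The ratio of miR-100-5p to miR-99b-5p was 0.0835, 0.227 and 0.267 in FA, 0.152, 0.131 and 0.0675 after 1 ppm O3 and 0.0811, 0.0508 and 0.0612 after 2 ppm O3, and 3 of 27 pairs rose (exact permutation p = 0.0214, adjusted 0.0429). This one did not hold up, since the adjusted value was 0.0571 or more when any pool other than FA pool 1 was left out. No change was detected in the ratio of miR-100-5p to miR-99a-5p, of miR-125b-5p to miR-125a-5p or of miR-10b-5p to miR-10a-5p, in which 9, 10 and 10 of 27 pairs rose (exact permutation p = 0.388, 0.519 and 0.519, each 0.519 after adjustment). The mean difference of the log2 ratio between 2 ppm O3 and FA was -1.06 for miR-99a-5p to miR-99b-5p, 1.07 for miR-99b-5p to miR-125a-5p and -0.16 for miR-125b-5p to miR-125a-5p.

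By cluster, the summed level of all member entries after 2 ppm O3 was 0.279 times that in FA for mir-10a in the HoxB cluster, 0.289 times for the mir-99a cluster, 0.284 times for the mir-100 cluster and 0.356 times for the mir-99b cluster. These sums were not rescaled. The reads taken by the 5 hairpins led by mir-2137 lower each of them after 2 ppm O3. On the same scaling, the middle entry of those tested lay at -0.83 on the log2 scale. Of the mean of 2748 RPMMM of the mir-100 cluster in FA, 1624 RPMMM were miR-125b-5p of mir-125b-1. Its reads cannot be told apart from those of mir-125b-2 in the mir-99a cluster. The HoxB sum was 3357, 5329 and 6419 RPMMM in FA and 1409, 1430 and 1382 RPMMM after 2 ppm O3. The mir-99b cluster held the most reads, a mean of 22588 RPMMM in FA (SD 2747 over 3 pools), 18246 RPMMM after 1 ppm O3 (SD 851) and 8035 RPMMM after 2 ppm O3 (SD 765). The sum of mir-10b in the HoxD cluster was 138, 113 and 479 RPMMM in FA and was above 0 in 1 of 3 pools after 2 ppm O3, where it was 0.0778 times that in FA. Each pool was then left out in turn, a check added after the data were seen. The HoxD value became 0.151 without FA pool 3 and was 0 RPMMM in both other pools without 2 ppm pool 3, whereas the values of the other 4 clusters moved by less than 1.5 times.

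The let-7 genes of the 3 clusters, whose products repress growth and cell cycle mRNAs, gave 5 mature entries, all tested, of which 4 were called lower after 2 ppm O3 (29.3% of all entries), 3 were called lower between 2 ppm and 1 ppm O3 (22.3% of all entries) and 0 were called after 1 ppm O3 by limma (1 at an unadjusted p under 0.05). let-7e-5p, which sits between mir-99b and mir-125a, was at 4112, 4099 and 4130 RPMMM in FA, 3303, 2787 and 2884 RPMMM after 1 ppm O3 and 833, 925 and 1518 RPMMM after 2 ppm O3. Its log2 fold change after 2 ppm O3 was -1.96 ± 0.20 (adjusted p = 3.1e-05 from limma), so that within 683 bp of chromosome 17 the values were -0.71 for miR-99b-5p, -1.96 for let-7e-5p and -1.78 for miR-125a-5p. let-7c-1-5p lay at -1.45 ± 0.10 and let-7a-2-5p at -1.32 ± 0.11, smaller in size than the -1.77 and -2.15 of their neighbours miR-99a-5p and miR-100-5p. With the median-ratio scaling, let-7e-5p was the 1 let-7 entry called after 2 ppm O3, at -1.27, where 33 of 455 entries were called lower. There let-7e-3p was at -0.91, let-7c-1-5p at -0.75 and let-7a-2-5p at -0.62. Between the concentrations 0 were called by limma (3 at an unadjusted p under 0.05), where 6 of 455 entries were called lower. let-7c-1-5p and let-7a-2-5p have the same sequence as other genomic copies outside these clusters, so their reads are uncertain as to source. The other miRNAs of the Hox clusters could not be compared. The mir-196 genes were not analysed here, and the 2 arms of mir-615 were above 0 in 1 pool each, at 20.7 RPMMM and 25.6 RPMMM.

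**Figure D4:**
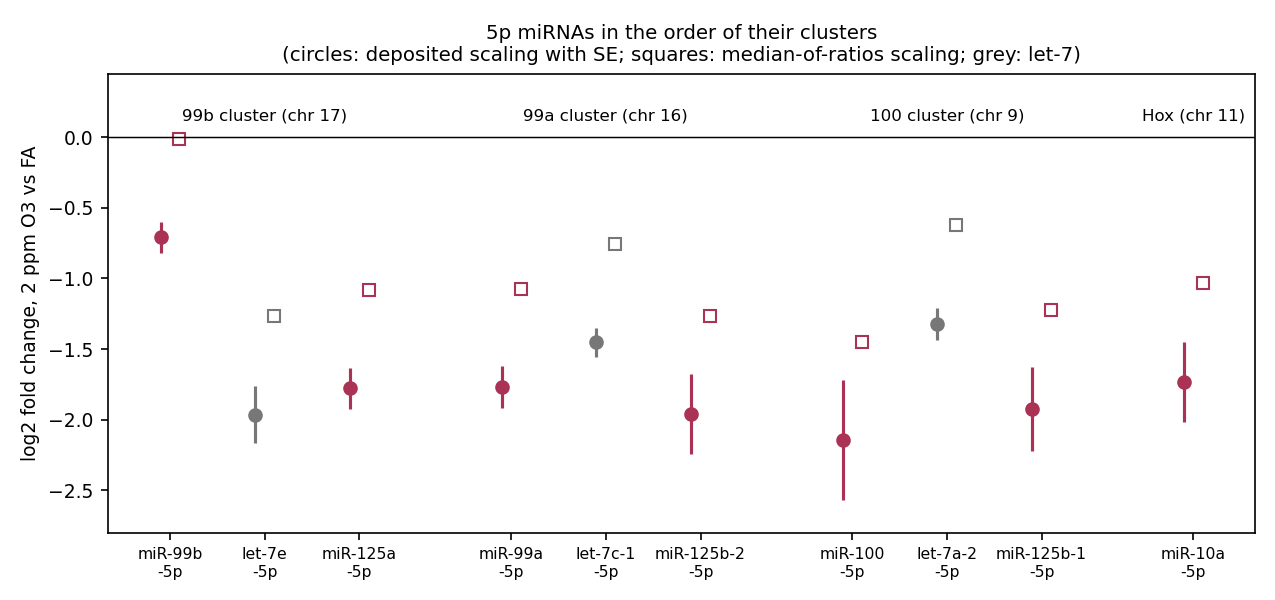
Log2 fold change after 2 ppm O3 relative to FA of 5p miRNAs in the order of their clusters, with members in red and let-7 in grey. Circles are the deposited scaling with the SE and squares the median-ratio scaling. miR-99b-5p, at -0.71 and -0.01, stands above its neighbours let-7e-5p and miR-125a-5p under both scalings.

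The 3p arms of the mir-125 hairpins, the strand that is usually discarded, were not called after either concentration. Their sequences from RefSeq, seed in capitals, show 3 different seeds. Each whole sequence matched mm9 at 1 place, so that, unlike the 5p sequence common to both copies of mir-125b, they can be assigned to 1 hairpin each.
miR-125a-3p: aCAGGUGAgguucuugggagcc
miR-125b-1-3p: aCGGGUUAggcucuugggagcu
miR-125b-2-3p: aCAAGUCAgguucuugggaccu

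miR-125a-3p was at 176, 388 and 351 RPMMM in FA, 236, 265 and 177 RPMMM after 1 ppm O3 and 236, 187 and 200 RPMMM after 2 ppm O3, and changed by -0.48 ± 0.35 on the log2 scale after 2 ppm O3, without a call (limma adjusted p = 0.256). Its exposures overlapped. miR-125b-1-3p was at 118, 150 and 93.4 RPMMM in FA, 331, 79.3 and 305 RPMMM after 1 ppm O3 and 189, 69.1 and 259 RPMMM after 2 ppm O3, and its log2 fold change after 2 ppm O3 was 0.35 ± 0.66 (adjusted p = 0.661 from limma). miR-125b-2-3p was at 131, 150 and 232 RPMMM in FA, 145, 306 and 265 RPMMM after 1 ppm O3 and 176, 142 and 63.9 RPMMM after 2 ppm O3, with -0.50 ± 0.48 (adjusted p = 0.376 from limma). Under the median-ratio scaling the values of miR-125a-3p and miR-125b-2-3p changed sign, to 0.21 and 0.19, also without a call. miR-99b-3p and miR-10a-3p, with 0 in 1 of the 2 ppm pools each, had -3.04 ± 1.63 and -2.55 ± 1.45 (adjusted p = 0.135 and 0.156 from limma). The level of miR-99b-3p was 170, 194 and 224 RPMMM in FA, 195, 99.1 and 36.0 RPMMM after 1 ppm O3 and 133, 0 and 99.5 RPMMM after 2 ppm O3, and that of miR-10a-3p was 132, 34.9 and 118 RPMMM, 136, 68.5 and 62.7 RPMMM and 0, 48.4 and 56.8 RPMMM.

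As a description chosen after the values were seen, the number of miR-125a-5p reads for each miR-125a-3p read was 77.2, 49.8 and 47.5 in FA, 53.8, 48.3 and 64.1 after 1 ppm O3 and 21.3, 22.0 and 26.4 after 2 ppm O3. The 2 ppm pools lay below all others. For mir-125b-1 the ratio was 9.74, 14.5 and 16.6 in FA, 3.11, 15.5 and 2.68 after 1 ppm O3 and 2.21, 4.34 and 2.17 after 2 ppm O3, and for mir-125b-2 the FA and 2 ppm pools overlapped. Of the 5 member hairpins with both arms above 50 RPMMM, 2 had a ratio of major to minor arm that was lower in every 2 ppm pool than in every FA pool, and 10% of all 60 such hairpins in the table did. The 5p reads of mir-125b-1 may come from either copy, and the miR-125a-3p values of the 2 ppm pools rest on an estimated 54.1 to 70.8 reads.

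**Figure D5:**
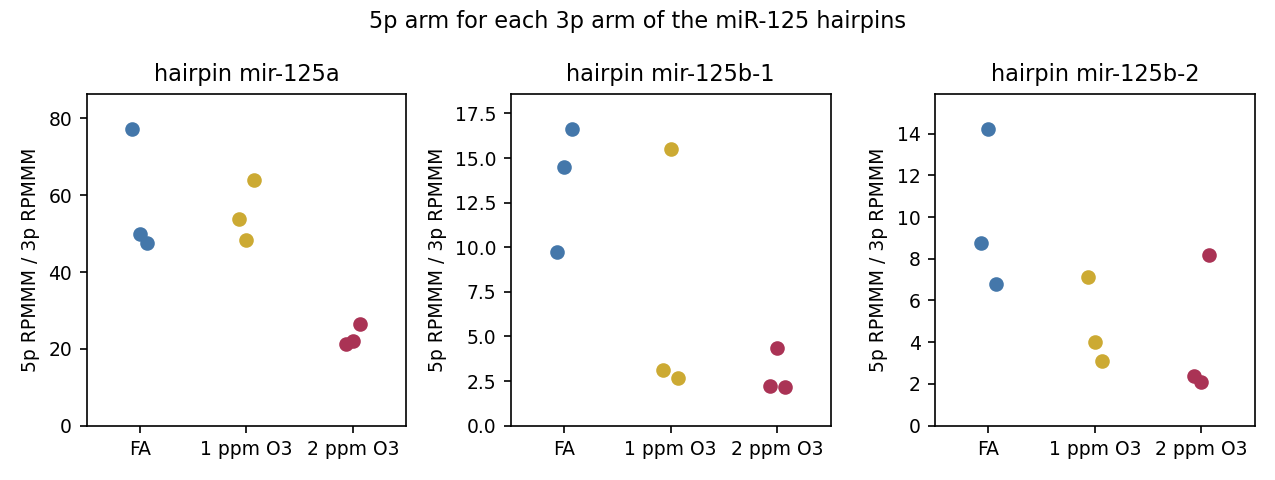
Reads of the 5p arm for each read of the 3p arm of the mir-125 hairpins, with 1 point per pool and an axis from 0. For mir-125a the 2 ppm pools lie between 21.3 and 26.4 and the others between 47.5 and 77.2, whereas the exposures overlap for mir-125b-2.

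IsomiRs were a small part of most members. Entries with a shifted 5′ end made up 6.12% ± 0.343 (SD, n = 3 pools) of the reads of miR-125a-5p in FA and 5.14% ± 0.489 after 2 ppm O3, and 8.84% ± 1.49 and 8.92% ± 1.54 of those of miR-99a-5p. The miR-10 members were the exception. For miR-10b-5p the share was 36.6%, 22.3% and 15.6% in the FA pools, at low levels, and for miR-10a-5p it was 31.3% ± 3.15 in FA, 25.0% ± 2.27 after 1 ppm O3 and 28.1% ± 9.56 after 2 ppm O3, where the pools ranged from 19.0% to 38.1%. Nearly all of this was the isomiR that starts 1 base later, with 29.8% in FA. A later start moves the seed, which is shown in capitals within the mature sequence.
miR-10a-5p, start at base 2: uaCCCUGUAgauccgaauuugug

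The shifted seed CCCUGUA shared its first 5 of 7 letters with the miR-125 seed CCCUGAG. Of the 9 isomiRs tested, 7 were called lower after 2 ppm O3, where 29.3% of all entries were called lower, with shifts of 1 or 2 bases. The 7 hold both copies of miR-125b-5p with a shift of 1, which have the same sequence and nearly the same levels, so that 1 signal counts 2 times. These 2 entries averaged more than 50 RPMMM only through their FA and 1 ppm levels, so their calls carry little weight. With the median-ratio scaling 5 of the 9 were called, without miR-99a-5p and miR-125b-1-5p with a shift of 1 (adjusted p = 0.124 and 0.0509 from limma), where 33 of 455 entries were called lower. When the 5 hairpins named above were kept out of the total, 3 of the 9 were called, where 26 of 441 entries were called lower. Those of miR-125a-5p averaged 554 RPMMM in FA and 118 RPMMM after 2 ppm O3 for a shift of 1, and 354 and 83.0 RPMMM for a shift of 2. Those of miR-99a-5p averaged 436 and 158 RPMMM for a shift of 1, and 412 and 125.5 RPMMM for a shift of 2. The isomiRs of miR-125b-5p with a shift of 1 averaged 103 RPMMM for copy 1 and 108 RPMMM for copy 2 in FA, and 14.4 RPMMM for each after 2 ppm O3, with 0 in 2 of 3 pools, and copy 1 was not called without FA pool 3 (adjusted p = 0.0534 from limma). The isomiRs of miR-99b-5p were not called, at 154 and 34.9 RPMMM for a shift of 1 and 50.0 and 48.6 RPMMM for a shift of 2. The one with a shift of 1 was called with 10 RPMMM added (-2.23, adjusted p = 0.0230 from limma) and without 2 ppm pool 2 or 2 ppm pool 3. The other 27 member entries, all isomiRs, had means between 1.58 and 48.9 RPMMM and no value above 118 RPMMM, and 22 of them were at 0 in all 2 ppm pools. Such zeros were common in the shallow 2 ppm pools, where all entries at 0 shared rank 619 among the 1308 of the table, so the count is not particular to the members.

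The likeness of profiles was measured as the mean absolute difference of log2(RPMMM + 1) over the 9 pools after each entry was centred, and is a description. miR-125a-5p and miR-99a-5p, from different chromosomes and with different seeds, were each other's nearest profile among 235 candidate entries, at 0.0856. The nearest profile of both copies of miR-125b-5p was miR-125a-5p, at 0.184 and 0.171. miR-99b-5p was nearest to miR-30d-5p, at 0.0659, then miR-30a-5p and miR-21-5p, and its distance to miR-99a-5p was 0.386 and to miR-125a-5p 0.397. miR-10a-5p was nearest to miR-361-3p, at 0.208, and miR-100-5p to miR-351-5p, at 0.220. miR-10b-5p had no close profile, with miR-449a-3p nearest at 0.785.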

How the data were processed

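Small RNA of EVs, isolated on membrane columns from BALF of mice exposed to FA, 1 ppm O3 or 2 ppm O3, was sequenced in 9 pools, 3 per exposure. Per the labels and the methods of the study, the authors trimmed adapters, aligned reads to mm9 and counted both miRNAs and their isomiRs in miRquant 2.0, and the deposited values are RPMMM, an RPM of the reads mapped to miRNAs, so each column sums to the same total and a level is a share. How reads with several matches were divided was not given in the sources used here.

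From these values, log2(RPMMM + 1) was modelled in limma (version 3.58.1, R 4.3.3) for 461 entries whose mean exceeded 50 RPMMM, with 1 mean for each exposure, all 9 pools together and a variance prior that followed the mean level. Benjamini-Hochberg adjustment ran over all entries tested. The adjusted p of 0.05, the fold change of 2 and the 50 RPMMM are the thresholds of the study, which names no test for the sequencing. Ratios within a pool were compared by an exact permutation test, two-sided, over all arrangements of the 9 pools, with Benjamini-Hochberg adjustment over the 6 ratios. The p-values measure the spread between pools. Pools, not single mice, are the replicates. The paper lists a single exposure run at each O3 concentration, so that run and concentration cannot be told apart. The spread between O3 pools then holds no variation between runs.

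Read numbers were estimated from the steps between low values, with the lowest value above 0 taken as close to 10 reads. Between 71.6% and 88.3% of low values then lay within 0.1 of a whole read. In each pool a step smaller by a factor of 2 fitted more of them, so that true numbers could be higher, and no test on counts was made. The limma fit described above was checked on simulated data, which did not cover these read estimates.

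The superfamily, its cluster partners and the marker lists were chosen with earlier results of these data known. Named entries were all mature arms of the member hairpins, their let-7 partners, the isomiRs above 50 RPMMM and the nearest profile of each 5p member. Mature sequences came from RefSeq (GRCm38.p6) and were placed in mm9 by exact match. Alternatives covered the pseudocount (10), the filter (none, or 200 RPMMM), the scaling, the handling of isomiRs and copies, the model and leaving out single pools. Figures were drawn with Python 3.11.15 and matplotlib 3.10.9. Other small RNAs were not analysed here.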

Additional observations from a re-analysis of the deposited data

How the results depend on the processing

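The number of members called after 2 ppm O3 relative to FA was 13 of 22, where 43.6% of all entries were called. It became 6 of 23 when the 5 hairpins mir-5115, mir-5109, mir-5105, mir-5102 and mir-2137 were kept out of the total, where 15.6% of all entries were called and 26 of 441 were called lower. With each mature miRNA tested once and with isomiRs added it was 5 and 6 of 12, where fewer entries exist and 40.3% and 42.1% of them were called. In these settings 75 of 216 and 86 of 233 entries were called lower. The 5 of 12 is near the share of all entries called in either direction. The share of all entries called is in brackets for the other comparisons. Between 2 ppm and 1 ppm O3 the 11 calls (33.6%) became 0 with the median-ratio scaling (17.8%, 6 of 455 lower) and 0 without those 5 hairpins (11.3%, 8 of 441 lower). They became 5 with each mature miRNA once (26.4%), 4 with isomiRs added (27.9%), 7 with only the compared groups in the fit (30.4%), and 6 to 11 with 1 pool left out (22.0% to 32.3%). After 1 ppm O3 the 1 call (13.2%) became 0 with each mature miRNA once (6.02%) and with isomiRs added (6.87%), and 0 to 1 with 1 pool left out (9.63% to 13.1%). The log2 difference of the ratio of miR-100-5p to miR-99b-5p, -1.44, ranged from -1.96 to -1.12 with 1 pool left out. Apart from the counts made with fewer entries, the cause was not tested.

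Among the mature arms, signs changed for uncalled values only, except for miR-99b-5p after 2 ppm O3, which passed the adjusted p as deposited and was 0.15 without the 5 hairpins. After 2 ppm O3 relative to FA, the median-ratio scaling and the total without the 5 hairpins gave 0.21 and 0.38 for miR-125a-3p and 0.19 and 0.36 for miR-125b-2-3p, and between 2 ppm and 1 ppm O3 they gave 0.50 and 0.64 for miR-125a-3p and 0.20 and 0.33 for miR-125b-1-3p. miR-10a-3p after 1 ppm O3 was -0.099 with isomiRs added. With 1 pool left out, the ranges of mature arms that crossed 0 were -0.57 to 0.38 for miR-10a-3p after 1 ppm O3, -0.046 to 0.90 for miR-125b-1-3p after 2 ppm O3, and, between the concentrations, -0.28 to 0.015 for miR-125a-3p, -1.07 to 0.14 for miR-125b-1-3p and -3.16 to 0.37 for miR-99b-3p. For isomiRs they were -0.60 to 0.069 and -0.66 to 0.013 for miR-125b-1-5p and miR-125b-2-5p with a shift of 1 and -0.20 to 0.69 for miR-99b-5p with a shift of 1, all after 1 ppm O3, and -2.82 to 0.48 for miR-99b-5p with a shift of 2 after 2 ppm O3. Of the other settings for single mature members, 645 fold changes kept their direction and their side of the threshold. A call was lost by 18 and gained by 5, the last all for miR-10b-5p. Without FA pool 3 this miRNA fell below the filter and was not tested, so these gained calls carry little weight. No paired analysis was possible because the pools of different exposures carry no replicate number in the labels.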
